A study of Mus musculus with 14 samples.

Results

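The Engrailed, Gbx and Otx genes (En1, En2, Gbx1, Gbx2, Otx1 and Otx2) were examined for H3K27me3, the trimethylated lysine 27 of histone H3 that Polycomb repressive complex 2 deposits. A peak was assigned to a gene when it lay within 10 kb of the RefSeq gene body, which gave 58 of 74458 peaks and 6 of the 16999 protein-coding genes that had such a peak. The members were chosen by gene family. H3K27me3 had been profiled by Cut&Tag, in which the transposase Tn5 is tethered to an antibody on chromatin, in mouse embryonic stem cells (mESCs). All lines derived from G4 mESCs, an F1 hybrid line, and were grown with LIF on CD1 feeder cells. By CRISPR-Cas9, each line had lost both copies of a locus that anchors long-range Polycomb contacts. The Hoxa deletion had 3 libraries, the Wnt6 deletion 2 and the Hmx1 deletion 2. The study describes each deletion as a clone, so a difference between deletions and a difference between clones cannot be told apart. No library of unedited cells was among these 7, and each deletion was compared with the other 2 pooled. The 3 comparisons therefore share their libraries. The IgG libraries, 7 in number, were left out.

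These genes encode homeodomain transcription factors that pattern the brain along its anterior-posterior axis. Otx2 specifies forebrain and midbrain and Gbx2 the anterior hindbrain, and their mutual repression places the isthmic organizer, the signalling centre at the midbrain-hindbrain boundary. En1 and En2 act in midbrain and cerebellum, Otx1 in cortex and sense organs, and Gbx1 in the dorsal spinal cord. Otx2 and Gbx2 are also active in pluripotent cells, Otx2 in the transition towards the primed state and Gbx2 downstream of LIF signalling. In mESCs, Polycomb holds many developmental regulators of this kind in a silent state, often at CpG-rich promoters.

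The 250 bases upstream of the start are shown for En1, Gbx2 and Otx2, since the relation of the peaks to the start is described for these genes. They were taken from RefSeq (GRCm38.p6) and are written 5′ to 3′ on the strand of the gene, with each CpG in capitals. En1 lies on the plus strand (chr1:120602237-120602486), Gbx2 on the minus strand (chr1:89931177-89931426) and Otx2 on the minus strand (chr14:48667645-48667894, its outermost start of 4). En2, Gbx1 and Otx1 have no entry in the promoter table.

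En1: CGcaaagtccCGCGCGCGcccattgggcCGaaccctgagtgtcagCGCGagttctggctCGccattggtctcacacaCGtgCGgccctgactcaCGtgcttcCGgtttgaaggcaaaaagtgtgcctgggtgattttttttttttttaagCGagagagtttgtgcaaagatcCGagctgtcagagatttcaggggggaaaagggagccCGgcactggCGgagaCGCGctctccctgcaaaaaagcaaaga
Gbx2: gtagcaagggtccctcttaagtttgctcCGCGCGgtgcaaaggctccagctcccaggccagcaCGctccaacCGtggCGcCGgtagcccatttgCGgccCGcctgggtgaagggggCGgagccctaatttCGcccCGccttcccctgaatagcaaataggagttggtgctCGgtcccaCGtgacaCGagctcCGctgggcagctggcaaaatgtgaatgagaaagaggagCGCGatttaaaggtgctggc
Otx2: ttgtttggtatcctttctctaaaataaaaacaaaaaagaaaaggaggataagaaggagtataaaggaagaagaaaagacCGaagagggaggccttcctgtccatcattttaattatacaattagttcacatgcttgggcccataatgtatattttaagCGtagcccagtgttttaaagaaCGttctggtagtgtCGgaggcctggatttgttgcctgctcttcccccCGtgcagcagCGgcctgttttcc

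The En1 sequence held 19 CpGs (56.0% G+C) and the Gbx2 sequence 18 (61.6% G+C), numbers reached by 19.73% and 21.67% of the 32851 promoters in the table. The Otx2 sequence held 6 CpGs (42.0% G+C), the median over all promoters. The start of Gbx2 lay in a peak, chr1:89930134-89931734. The start of En1 lay 406 bp from the nearest peak, chr1:120602893-120604052, inside the gene. The outermost start of Otx2 lay 447 bp from the nearest peak, chr14:48668091-48668357, upstream. Of the other Otx2 starts, that at position 48665109, whose upstream sequence held 14 CpGs, lay in a peak (chr14:48664894-48665127). The letters TAATTA, a core bound by many homeodomains, occurred 1 time in the Otx2 sequence and in neither of the other 2, against 4.84% of all promoters. These letters read the same on both strands. TAATCC, the core recognised by Otx proteins, was absent from all 3 sequences on either strand and present in 6.25% of promoters. The sequence upstream of the start at 48665109, not shown, held TAATTA 3 times and TAATCC 1 time.

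Library totals over the peaks ranged from 6016500 to 36563541 counts, and the lowest count of any member peak in any library was 7. Member peaks took between 0.226% and 0.251% of the counts. The deleted loci matched the labels. Mean H3K27me3 at Hoxa9 was 0.0854 CPM per kb of peak in the Hoxa deletion against 53.3 and 56.6 in the other deletions. At Wnt6 it was 5.28 in the Wnt6 deletion against 56.4 and 54.2, and at Hmx1 it was 1.94 in the Hmx1 deletion against 63.9 and 59.6. H3K27me3 marks silent genes, so that it checks cell identity only indirectly. Of 10 genes active in pluripotent cells, Dppa4, Dppa5a and Tdgf1 had no peak within 10 kb, and the median level of the remaining 7 was 7.14 CPM per kb. Among them Sox2 (18.5) and Esrrb (17.7) lay above the median over all genes with a peak, 10.9. Of 6 genes active in fibroblasts, which the feeder cells are, Col3a1 had no peak, and the median of the other 5 was 29.4 CPM per kb. In bulk libraries, a mark present in fewer cells and less of the mark per cell cannot be told apart.

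All 6 genes carried more H3K27me3 than most genes with a peak. Levels between genes are given as TMM-scaled CPM per kb of peak, summed over the peaks of a gene. The Otx1 mean over the 7 libraries was 78.0 ± 3.47 (SD), above that of 99.38% of genes. En2 followed with 53.3 ± 2.68 and En1 with 50.4 ± 2.24, at percentiles 95.68 and 94.55. Otx2 had 38.0, Gbx1 33.2 and Gbx2 30.9, at percentiles 89.01, 85.61 and 83.7. The median over all 16999 genes was 10.9. The Otx1 libraries lay above all libraries of the other 5 genes. The ranges of En2 and En1 overlapped, as did those of Otx2, Gbx1 and Gbx2, while all En1 libraries lay above those of Otx2. Within libraries, En2 was above En1 in 7 of 7 and Gbx1 above Gbx2 in 6 of 7. Taken per kb of the whole window (gene body and 10 kb on each side), En2 (21.7) and Otx1 (21.6) stood highest, followed by En1 (16.6), Gbx2 (10.01), Otx2 (9.76) and Gbx1 (6.05). Gbx1 thus came last over the window, of which its peaks covered 18.3%, whereas the En2 peaks covered 40.8%.

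**Figure D1:**
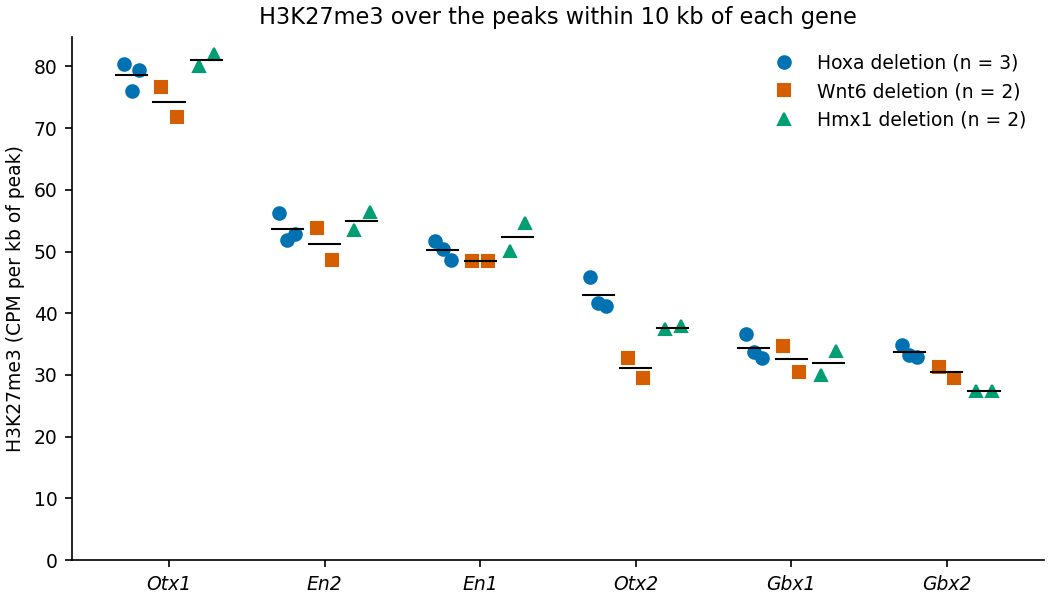
H3K27me3 in CPM per kb of peak (y axis, from 0) for the 6 genes (x axis, by mean level) in each library. Points are libraries of the Hoxa, Wnt6 and Hmx1 deletions and lines are group means. The Otx2 points separate by deletion, with the Wnt6 deletion at 32.7 and 29.5 and the Hoxa deletion between 41.2 and 45.9.

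The mark was spread over many peaks at Otx1, En1 and En2 and held mostly in 1 peak at Gbx1. Of the 58 peaks, 33 exceeded the 90th percentile of all peaks in CPM per kb. They were 7 of 8 at Otx1, 9 of 11 at En2, 8 of 10 at En1, 5 of 12 at Otx2, 2 of 10 at Gbx1 and 2 of 7 at Gbx2. The densest member peak lay 0.794 kb below the lower end of Otx1 (chr11:21992708-21993970) with 105.3 CPM per kb, above 99.73% of all peaks. Its libraries stood at 129.8, 126.3 and 143.8 CPM for the Hoxa deletion, 126.8 and 118.8 for the Wnt6 deletion, and 144.7 and 140.1 for the Hmx1 deletion. The groups overlapped, with a Wnt6 library lowest and an Hmx1 library highest. The peak over the higher end of Otx1, chr11:22001433-22002227, reached 97.8 CPM per kb.

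At En2 the densest peak was chr5:28170957-28171257 in the gene body, with 81.6 CPM per kb, and the peak over the lower end, chr5:28165432-28167417, had 66.1. The nearest peak to the higher end of En2 was chr5:28173636-28174458, with 36.2 CPM per kb. At En1 the densest peak, chr1:120602893-120604052, began just inside the gene and had 72.1 CPM per kb. En1 had 5 peaks upstream, 3 in the gene body and 2 downstream, all of at least 29.3 CPM per kb. At Gbx1, chr5:24523715-24527419, which spans the higher end of the gene, held 66.1% of the signal, at 45.8 CPM per kb. The densest Gbx1 peak was the shorter chr5:24530118-24530555, 3.27 kb beyond that end, with 71.9 CPM per kb. The peak over the lower end of Gbx1, chr5:24504417-24505029, had 8.05 CPM per kb, close to the median of all peaks (7.74). The start-spanning peak of Gbx2 was its densest, with 49.1 CPM per kb and 33.8% of the signal. At Otx2 the densest peak was upstream, chr14:48668747-48669295, with 58.2 CPM per kb, and the downstream peaks were weaker, with 16.7 and 21.2.

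**Figure D2:**
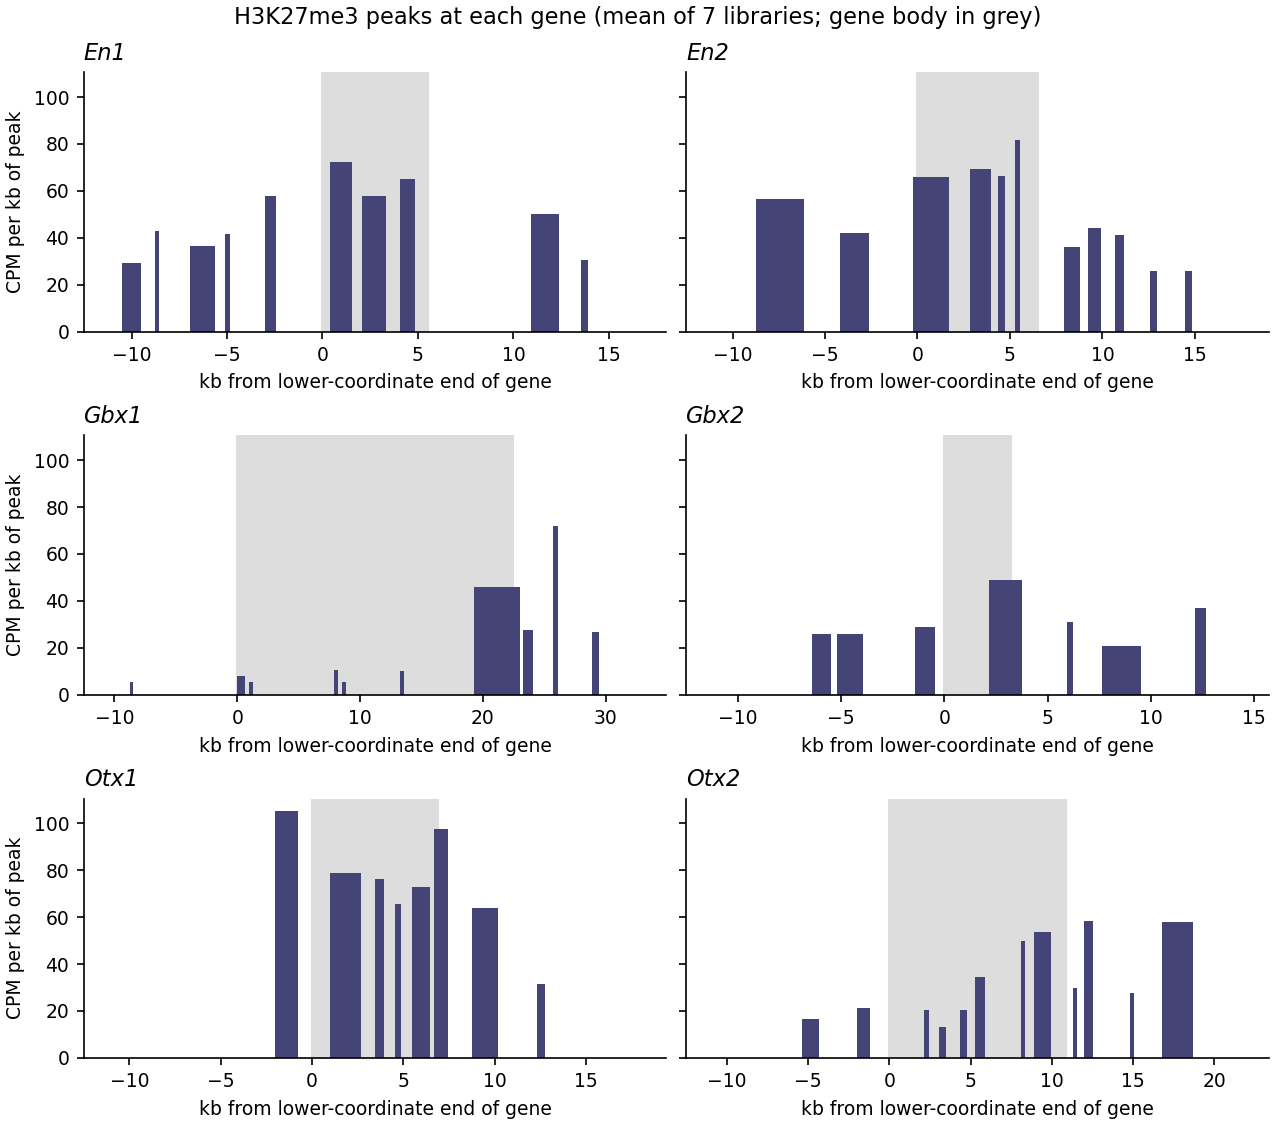
Peaks (bars, width to scale) around each gene, with mean CPM per kb of peak over 7 libraries (y axis) against kb from the lower-coordinate end of the gene (x axis). The gene body is in grey. Otx1, En1 and En2 carry dense peaks on both sides and inside the gene, whereas 66.1% of the Gbx1 signal is in the peak over its higher end.

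H3K27me3 at Otx2 differed most among the 6 genes. The Otx2 level was 45.9, 41.7 and 41.2 CPM per kb in the Hoxa deletion, 32.7 and 29.5 in the Wnt6 deletion, and 37.4 and 37.9 in the Hmx1 deletion. The 3 groups did not overlap, with the Hoxa deletion highest and the Wnt6 deletion lowest, and the highest library was 1.55 times the lowest. For the other members this ratio was between 1.13 and 1.27, and its median over all genes was 1.44. Most genes had fewer peaks (median 2, against 7 to 12 at the members) and a lower level. Low counts widen the ratio, so 1.44 is not a like measure for the members. Every Hoxa library exceeded every other library at 2 of the 6 members (Otx2 and Gbx2; 17.7% of all genes), every Wnt6 library was below the others at 2 (Otx2 and En1; 6.03%), and every Hmx1 library was below the others at 1 (Gbx2; 14.4%). Otx2 was higher in the Hoxa deletion than in the others by 0.32 on the log2 scale (SE 0.0723, adjusted p = 7.35e-04, edgeR quasi-likelihood test with Benjamini-Hochberg adjustment over all genes). Together with Gbx2 it was 1 of 2 members that passed in this comparison, in which 19.4% of all genes passed, and 13.6% passed as higher. With only 6 genes, 2 is not read as more than that background. Otx2 passed under all 21 alternatives, with adjusted p from 2.86e-07 to 0.0455 by edgeR or DESeq2. For genes, the fit without a filter repeats the main fit, since the filter removed 0 genes. Without unedited cells, a gain in the Hoxa deletion and a loss in the others cannot be told apart.

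In the Wnt6 deletion the Otx2 log2 difference was -0.39 (SE 0.0887) with an unadjusted p of 8.50e-04 but an adjusted p of 0.573 by edgeR's quasi-likelihood test. In this comparison 0 of 6 members passed, against 0.0412% of all genes. At an unadjusted p under 0.05 there was 1 member, and DESeq2 passed 0. The shares of all genes under these rules are not given. The pooled reference of this comparison holds both the Hoxa deletion, where Otx2 was high, and the Hmx1 deletion. Taken pair by pair in a fit with a term for each deletion, Otx2 was higher in the Hoxa than in the Wnt6 deletion by 0.47 (SE 0.0683, adjusted p = 2.86e-07), where 15.1% of genes passed. It was also higher in the Hoxa than in the Hmx1 deletion by 0.18 (SE 0.0684, adjusted p = 0.0455), where 20.1% passed. Between the Wnt6 and Hmx1 deletions the log2 difference was -0.28 (SE 0.0748, adjusted p = 0.0388), and here 1.15% of genes passed. Otx2 thus differed in each pair by edgeR, and its direction in the Hmx1 deletion depended on the reference. Against the pool, the Hmx1 difference was -0.019 (SE 0.140, adjusted p = 0.965). With a term for each deletion and the mean of the other 2 as reference, Otx2 was the only member past the adjusted p in the Wnt6 deletion (-0.37, adjusted p = 4.84e-05), where 3.59% of all genes passed. Gbx2 was the only member past it in the Hmx1 deletion (-0.22, adjusted p = 0.0121), where 10.8% passed. The pooled and the term-wise fits thus differed in these calls.

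The difference at Otx2 was largest downstream of the gene and in its 3′ portion. In the Hoxa comparison 7 of the 58 member peaks passed the adjusted p, all of them higher, against 8.52% of all peaks tested (4.32% as higher). Of these 7, 5 were at Otx2, and 0 of 58 also passed the threshold on the size, an absolute log2 fold change over 1, which 1.55% of all peaks did. At an unadjusted p under 0.05 there were 15 member peaks, and DESeq2 passed 5 by the adjusted p and 0 with the size threshold. The shares of all peaks under these rules are not given here, so these counts are not read against a background. The 2 downstream peaks both passed, as did 3 of the 6 in the gene body and 0 of the 4 upstream. The median log2 fold changes of these classes were 0.84, 0.52 and 0.22. Every Hoxa library exceeded every other library at 7 member peaks, 4 at Otx2, 2 at Gbx2 and 1 at Gbx1, against 9.09% of all peaks. Without replicate 1 of the Hoxa deletion or without replicate 2 of the Wnt6 deletion, 4 member peaks passed the adjusted p instead of 7. The 5 peaks at Otx2 became 2 without replicate 2 of the Wnt6 deletion, and 3 without replicate 1 of the Hoxa deletion, without replicate 1 of the Wnt6 deletion, or in DESeq2. Against the Hmx1 deletion alone 5 member peaks passed, 2 of them at Otx2 (both downstream), where 6.90% of all peaks did.

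The downstream peak chr14:48651419-48652448, 4.33 kb from the gene, had 21.6, 23.6 and 24.2 CPM in the Hoxa deletion, 11.8 and 12.02 in the Wnt6 deletion, and 12.2 and 14.8 in the Hmx1 deletion. All Hoxa libraries stood above all others, and both Wnt6 libraries lay below the Hmx1 libraries. The log2 fold change in the Hoxa deletion was 0.86 (SE 0.123, adjusted p = 1.62e-06, edgeR), the smallest adjusted p of any member peak. The other downstream peak, chr14:48654772-48655607, is the nearer of the pair to the gene. It had 26.8, 22.01 and 21.5 CPM in the Hoxa deletion, 11.2 and 11.6 in the Wnt6 deletion, and 16.2 and 14.6 in the Hmx1 deletion. Its groups did not overlap, and its log2 fold change in the Hoxa deletion was 0.82 (SE 0.130, adjusted p = 1.1e-05, edgeR). Against the Wnt6 deletion alone it was 1.02 (SE 0.145, adjusted p = 8.52e-07), the only member peak past both thresholds, which 1.23% of all peaks passed in that pair.

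In the gene body, chr14:48658904-48659237 had 8.11, 7.72 and 9.34 CPM in the Hoxa deletion, 4.12 and 4.31 in the Wnt6 deletion, and 6.42 and 7.24 in the Hmx1 deletion. The 3 groups were again apart in the order Hoxa, Hmx1, Wnt6. The log2 fold change was 0.61 in the Hoxa deletion (SE 0.178, adjusted p = 0.0210, edgeR) and -0.88 in the Wnt6 deletion (SE 0.200, adjusted p = 0.387), the smallest adjusted p there. The peak chr14:48662056-48662667 was higher by 0.49 (adjusted p = 0.0166) and chr14:48661127-48661585 by 0.55 (adjusted p = 0.0206, both edgeR) in the Hoxa deletion. At chr14:48662056-48662667 the Hoxa libraries (30.7, 21.7 and 22.9 CPM) overlapped the Hmx1 libraries (22.99 and 20.5). The Wnt6 libraries were lowest there (14.2 and 14.3). At chr14:48661127-48661585 the Hmx1 libraries were far apart, at 5.07 and 10.6 CPM. Against the Hmx1 deletion alone, these 3 gene-body peaks did not pass (adjusted p = 0.510, 0.484 and 0.222, edgeR).

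Towards the start and upstream of Otx2 the Hoxa libraries were no longer all above the others. The peak in which the start at 48665109 lay had 11.99, 10.9 and 14.2 CPM in the Hoxa deletion, 9.06 and 9.30 in the Wnt6 deletion, and 13.9 and 11.6 in the Hmx1 deletion. Here the Hoxa and Hmx1 libraries were mixed and the Wnt6 libraries low. Its Hoxa log2 fold change was 0.20 (SE 0.148, adjusted p = 0.470, edgeR). The peak nearest the outermost start, chr14:48668091-48668357, had 0.25 (SE 0.173, adjusted p = 0.448). The densest Otx2 peak, chr14:48668747-48669295, had 0.25 (SE 0.115, adjusted p = 0.190). The far upstream peak chr14:48673583-48675470, which held 36.3% of the Otx2 signal, had 0.19 (SE 0.0858, adjusted p = 0.182). At the densest and the far upstream peak both Wnt6 libraries lay below all others. Against the Wnt6 deletion alone the Hoxa deletion was higher there by 0.45 and 0.32 (adjusted p = 0.0137 and 0.0276, edgeR). The upstream peak chr14:48671571-48671847 had the opposite sign in the Hoxa comparison, -0.15 (SE 0.159, adjusted p = 0.664). A peak weak in CPM has a wider SE. The 5 peaks that passed in the Hoxa comparison had lower levels per kb (16.7 to 34.4) than these upstream and start-proximal ones, except chr14:48668091-48668357 (29.7) and chr14:48671571-48671847 (27.6).

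**Figure D3:**
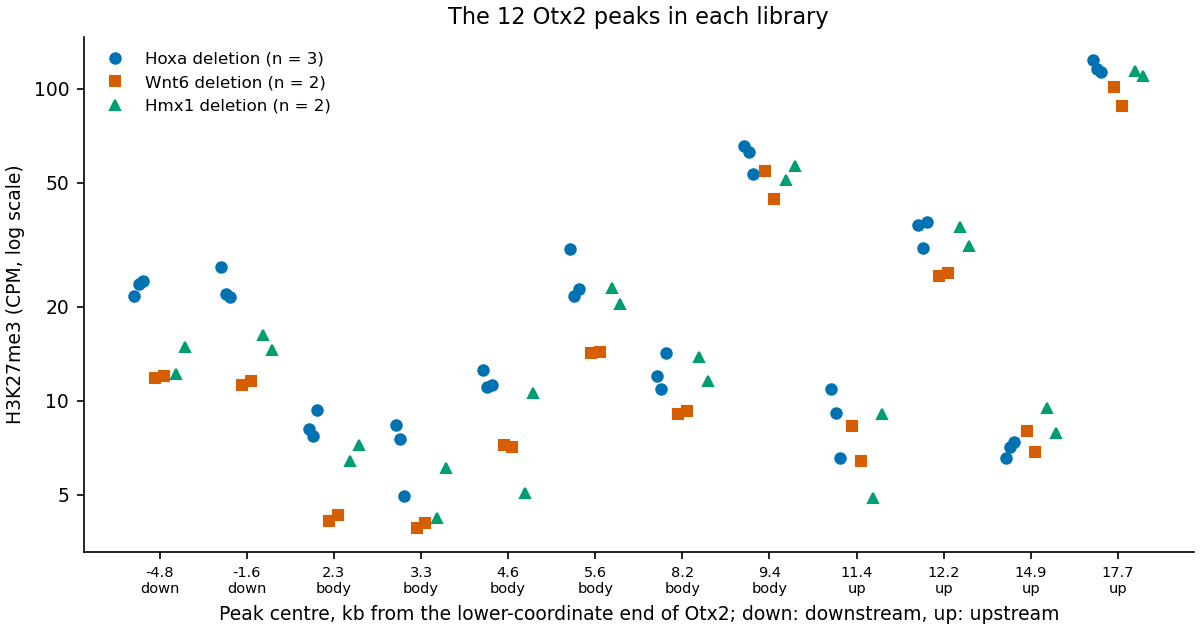
CPM (y axis, log scale) of each Otx2 peak in each library, by the distance of the peak centre from the lower-coordinate end of the gene (x axis, in kb). Otx2 is on the minus strand, so downstream lies at the left. The Hoxa libraries stand above the others at both downstream peaks, and the Wnt6 libraries stand below the others in 8 of 12 peaks.

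In the Wnt6 comparison all 12 Otx2 peaks had a log2 difference below 0, from -0.88 to -0.050. The medians were -0.76 downstream, -0.59 in the gene body and -0.24 upstream. Both Wnt6 libraries lay below every other library in 13 of the 58 member peaks, 8 of them at Otx2, against 4.60% of all peaks. Of the 58, 0 passed the adjusted p in edgeR, where 0.0564% of all peaks did, and 0 passed both thresholds (0.0497%). At an unadjusted p under 0.05 there were 9, all at Otx2, and DESeq2 passed 2 by the adjusted p with 5 peaks left without one. For these counts, too, the share of all peaks is not given. With a term for each deletion 4 passed, all at Otx2, where 0.572% of all peaks did. Against the Hoxa deletion alone, 9 member peaks passed, 8 at Otx2 and the Gbx1 peak described below, where 5.20% of all peaks did.

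Beyond 10 kb the pattern was weaker than downstream of Otx2 and in its gene body, and close to that of the upstream peaks (medians of 0.22 and -0.24 in the Hoxa and Wnt6 comparisons). Of the 22 peaks between 10 and 100 kb from Otx2, a window chosen after the Otx2 values were seen, 0 passed the adjusted p in any of the 3 comparisons by edgeR. Their median log2 differences were 0.18, -0.17 and 0.0064 in the Hoxa, Wnt6 and Hmx1 comparisons. The medians over all of chromosome 14 were 0.0050, -0.020 and -0.0072. Single peaks between 10 and 100 kb reached 0.58 (SE 0.205, adjusted p = 0.0691) and -0.72 (SE 0.310, adjusted p = 0.920) in the Hoxa and Wnt6 comparisons by edgeR. With SEs of this width, the absence of peaks past the threshold says little.

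**Figure D4:**
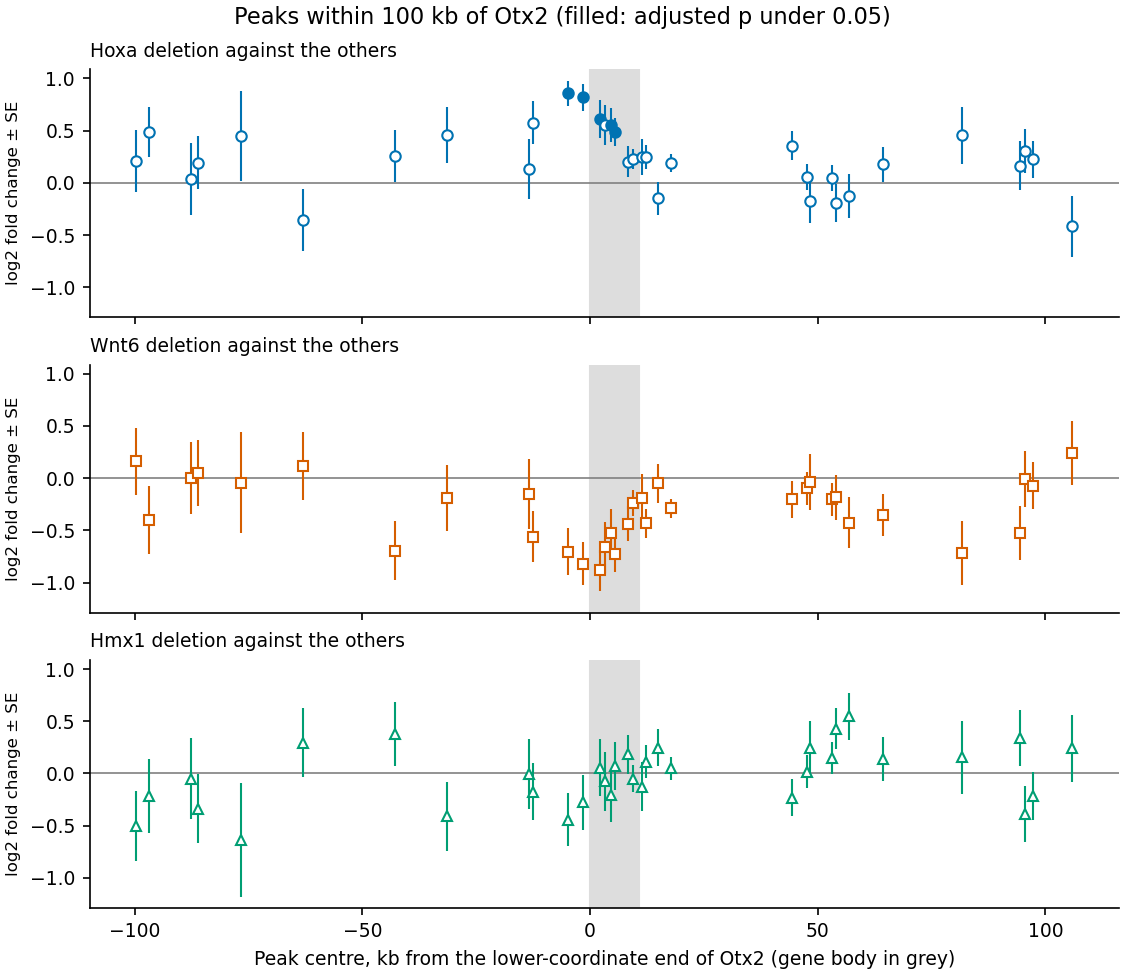
Log2 fold change ± SE (y axis) of peaks within 100 kb of Otx2 against the distance of the peak centre from its lower-coordinate end (x axis, kb), 1 panel for each comparison. Filled symbols passed an adjusted p of 0.05 by edgeR. They are confined to 5 peaks in the Hoxa panel at the downstream side and the 3′ portion of the gene, and the Wnt6 panel dips at the same place without a peak past the threshold.

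The summed H3K27me3 of the genes active in pluripotent cells was 394.8 to 411.4 CPM in the Hoxa deletion, 358.5 to 369.5 in the Hmx1 deletion and 334.2 to 346.8 in the Wnt6 deletion, without overlap and in the order seen at Otx2. That order rested on Esrrb, a regulator of self-renewal, which held 63.5% to 68.8% of the sum and did not pass in the Hoxa comparison (adjusted p = 0.228, edgeR). Without Esrrb the sums were 138.1 to 144.7 CPM in the Hoxa deletion, 112.0 to 118.3 in the Hmx1 deletion and 110.1 to 112.9 in the Wnt6 deletion, so that the Hoxa deletion stood highest and the other 2 overlapped. In the Hoxa comparison 2 of the 7 with a peak passed as higher, Klf4 by 0.60 and Tfcp2l1 by 0.84 (edgeR), and 0 passed as lower. Over all genes 13.6% passed as higher, so that with 7 genes 2 is not read as more than the background. Zfp42 had the opposite sign, at -0.55 (SE 0.244, adjusted p = 0.115, edgeR), and the other 6 were above 0. Nanog, Pou5f1 and Sox2 were higher by 0.11, 0.12 and 0.17 but did not pass (adjusted p = 0.851, 0.660 and 0.167, edgeR). The part of these genes in the Otx2 result was not tested. The fibroblast genes had sums of 769 to 816 CPM in the Hoxa deletion, 745 to 838 in the Wnt6 deletion and 806 to 854 in the Hmx1 deletion, which overlap. Of these genes, 0 of 5 passed in any comparison by edgeR, where 19.4%, 0.0412% and 0.0706% of all genes did (Hoxa, Wnt6, Hmx1). Under an unadjusted p of 0.05 there were also 0, with the share of all genes not given.

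Gbx2, the hindbrain counterpart of Otx2, was higher in the Hoxa deletion too, but had its lowest level in the Hmx1 deletion. The libraries were at 34.9, 33.2 and 32.9 CPM per kb in the Hoxa deletion, 31.3 and 29.5 in the Wnt6 deletion, and 27.36 and 27.38 in the Hmx1 deletion. The groups did not overlap, and the 2 Hmx1 libraries were almost equal. Gbx2 was higher in the Hoxa deletion by 0.22 (SE 0.0651, adjusted p = 0.0118, edgeR), beside a median of 0.055 over all genes. This call was lost without replicate 1 of the Hoxa deletion (0.19, adjusted p = 0.0926) and without replicate 2 of the Hmx1 deletion (0.19, adjusted p = 0.0838). In the Hmx1 comparison the log2 difference was -0.24 (SE 0.0766, unadjusted p = 0.00818, adjusted p = 0.190, edgeR). There 0 of 6 members passed, against 0.0706% of all genes. Gbx2 alone was under an unadjusted p of 0.05, and DESeq2 passed 0, with the shares of all genes under these rules not given. Without replicate 2 of the Wnt6 deletion Gbx2 passed in the Hmx1 comparison, with -0.27.

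Pair by pair, Gbx2 was higher in the Hoxa than in the Hmx1 deletion by 0.30 (SE 0.0685, adjusted p = 6.75e-04, edgeR). Its neighbours in the order did not pass, with 0.15 between the Hoxa and Wnt6 deletions (SE 0.0669, adjusted p = 0.149) and 0.15 between the Wnt6 and Hmx1 deletions (SE 0.0743, adjusted p = 0.430). The 7 Gbx2 peaks all had a log2 difference above 0 in the Hoxa comparison, from 0.027 to 0.37, and below 0 in the Hmx1 comparison, from -0.37 to -0.073. The upstream peak chr1:89935585-89937472 had 47.3, 47.6 and 40.2 CPM in the Hoxa deletion, 37.5 and 36.2 in the Wnt6 deletion, and 29.8 and 34.5 in the Hmx1 deletion. The 3 groups were apart, and this peak was higher in the Hoxa deletion by 0.37 (SE 0.103, adjusted p = 0.0138, edgeR). It also had the smallest adjusted p of the member peaks in the Hmx1 comparison, 0.451 at -0.37 (SE 0.138). The start-spanning peak had 85.2, 79.6 and 90.7 CPM in the Hoxa deletion, 80.8 and 71.8 in the Wnt6 deletion, and 72.01 and 69.8 in the Hmx1 deletion. Its Hoxa and Wnt6 libraries overlapped, and its log2 fold change in the Hoxa deletion was 0.21 (SE 0.0881, adjusted p = 0.139). Of the 13 peaks between 10 and 100 kb from Gbx2, 0 passed the adjusted p in any comparison by edgeR, with median log2 differences of 0.0070, -0.093 and 0.023.

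In the Hmx1 comparison over all members, 0 of 58 peaks passed the adjusted p in edgeR, against 0.0309% of all peaks, and 0 passed both thresholds (0.0282%). At an unadjusted p under 0.05 there were 6, of which 3 were at Gbx2, 2 at En1 and 1 at Gbx1. DESeq2 passed 0 with 7 peaks left without an adjusted p. Here again the share of all peaks under these rules is not given. Otx1 peaks were all higher in sign in this comparison, from 0.016 to 0.21, with adjusted p of at least 0.6475.

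Gbx1 as a whole did not pass in any comparison, but a peak on its higher side did. The Gbx1 level was 36.7, 33.7 and 32.8 CPM per kb in the Hoxa deletion, 34.6 and 30.4 in the Wnt6 deletion, and 29.9 and 33.9 in the Hmx1 deletion, and the groups overlapped. The log2 differences were 0.093, -0.039 and -0.076 (SE 0.0673, 0.0868 and 0.0832). The peak chr5:24533283-24533891, 6.43 kb from Gbx1 and within the body of the neighbouring gene Asb10, had 18.6, 22.5 and 19.5 CPM in the Hoxa deletion, 13.2 and 14.005 in the Wnt6 deletion, and 13.9 and 12.9 in the Hmx1 deletion. The Hoxa libraries were above all others, and the remaining deletions overlapped. This peak was higher in the Hoxa deletion by 0.59 (SE 0.123, adjusted p = 7.02e-04, edgeR). The much stronger peak over the higher end of Gbx1 ran from 152.1 to 189.1 CPM over the 7 libraries, with a log2 fold change of 0.034 (SE 0.0792, adjusted p = 0.867) in the Hoxa comparison.

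En1, En2 and Otx1, the members with the most H3K27me3, varied least over the 7 libraries, with the highest library 1.13 to 1.16 times the lowest. En1 had 51.7, 50.3 and 48.7 CPM per kb in the Hoxa deletion, 48.5 and 48.5 in the Wnt6 deletion, and 50.1 and 54.6 in the Hmx1 deletion. Both Wnt6 libraries were below all others by a narrow margin, and its log2 differences were -0.0056, -0.075 and 0.080 (SE 0.0623, 0.0623 and 0.0596). En2 had 56.2, 51.9 and 52.9 in the Hoxa deletion, 53.8 and 48.6 in the Wnt6 deletion, and 53.4 and 56.4 in the Hmx1 deletion, with overlapping groups. Its log2 differences were 0.016, -0.082 and 0.061 (SE 0.0602, 0.0612 and 0.0609). Otx1 had 80.3, 76.0 and 79.4 in the Hoxa deletion, 76.6 and 71.8 in the Wnt6 deletion, and 80.1 and 82.1 in the Hmx1 deletion. The Wnt6 libraries were again towards the low end, and the log2 differences were 0.017, -0.10 and 0.078 (SE 0.0593, 0.0550 and 0.0556). In all 3 genes 0 peaks passed the adjusted p in any comparison by edgeR. Of all peaks, 8.52%, 0.0564% and 0.0309% passed in the Hoxa, Wnt6 and Hmx1 comparisons, so the latter 2 say little about these genes. At an unadjusted p under 0.05 there were 3, all at En1, and the share of all peaks under this rule is not given. Among the peaks of these 3 genes, the largest log2 difference in the Hoxa comparison was at En1, with -0.28. Between paralogs, the level of En2 was 1.003 to 1.11 times that of En1 over the 7 libraries, and that of Gbx1 was 0.997 to 1.24 times that of Gbx2. The level of Otx1 was 1.75 to 2.43 times that of Otx2, with the lowest ratio in a Hoxa library and the highest in a Wnt6 library.

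Members that share a chromosome with a deletion were compared for an effect along the chromosome. Gbx2 lies 15.14 Mb and En1 45.82 Mb from Wnt6 on chromosome 1. In the Wnt6 deletion the log2 differences of Gbx2 and En1 were -0.034 (SE 0.103) and -0.075 (SE 0.0623), with adjusted p of 0.963 and 0.883 by edgeR. On chromosome 5, En2 lies 7.22 Mb and Gbx1 10.86 Mb from Hmx1. In the Hmx1 deletion their log2 differences were 0.061 (SE 0.0609) and -0.076 (SE 0.0832), with adjusted p of 0.675 and 0.707. Of the 17 peaks of Gbx2 and En1, 0 passed in the Wnt6 comparison, where 0.0564% of all peaks did. Of the 21 of En2 and Gbx1, 0 passed in the Hmx1 comparison, where 0.0309% of all peaks did. With shares this low, counts of 0 say little about these genes. At an unadjusted p under 0.05 there were 0 and 1, for which the share of all peaks is not given. Otx1 (chromosome 11) and Otx2 (chromosome 14) share a chromosome with none of the 3 deletions.

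Over the 6 genes, the median log2 difference was 0.055 in the Hoxa, -0.078 in the Wnt6 and 0.021 in the Hmx1 comparison, beside 0.055, -0.039 and -0.040 over all genes. A list of 12 other genes of the isthmic organizer was set beside them, with its secreted signals (Fgf8, Fgf17, Fgf18, Wnt1), transcription factors (Pax2, Pax5, Pax8, Lmx1b, Sp8) and FGF pathway modulators (Cnpy1, Spry1, Spry2). Their levels ran from 77.0 CPM per kb at Sp8 and 62.0 at Wnt1 to 7.22 at Fgf17 and 5.45 at Spry2. In the Hoxa comparison 2 of 12 passed as higher and 0 as lower by edgeR, near the background of 13.6% of all genes that passed as higher. Fgf17 had 9.75, 9.22 and 8.40 CPM per kb in the Hoxa deletion, 5.48 and 6.04 in the Wnt6 deletion, and 5.85 and 5.76 in the Hmx1 deletion. The Hoxa libraries were above all others and the remaining deletions overlapped, and the log2 fold change was 0.65 (SE 0.0936, adjusted p = 5.12e-07). Cnpy1, which lies 0.0286 Mb from En2, was higher by 0.30 (SE 0.0916, adjusted p = 0.0138). In the Wnt6 and Hmx1 comparisons 0 of 12 passed, where 0.0412% and 0.0706% of all genes did. In each, 1 was under an unadjusted p of 0.05, for which the share of all genes is not given. The median log2 differences of the list were 0.036, -0.10 and 0.035.

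**Figure D5:**
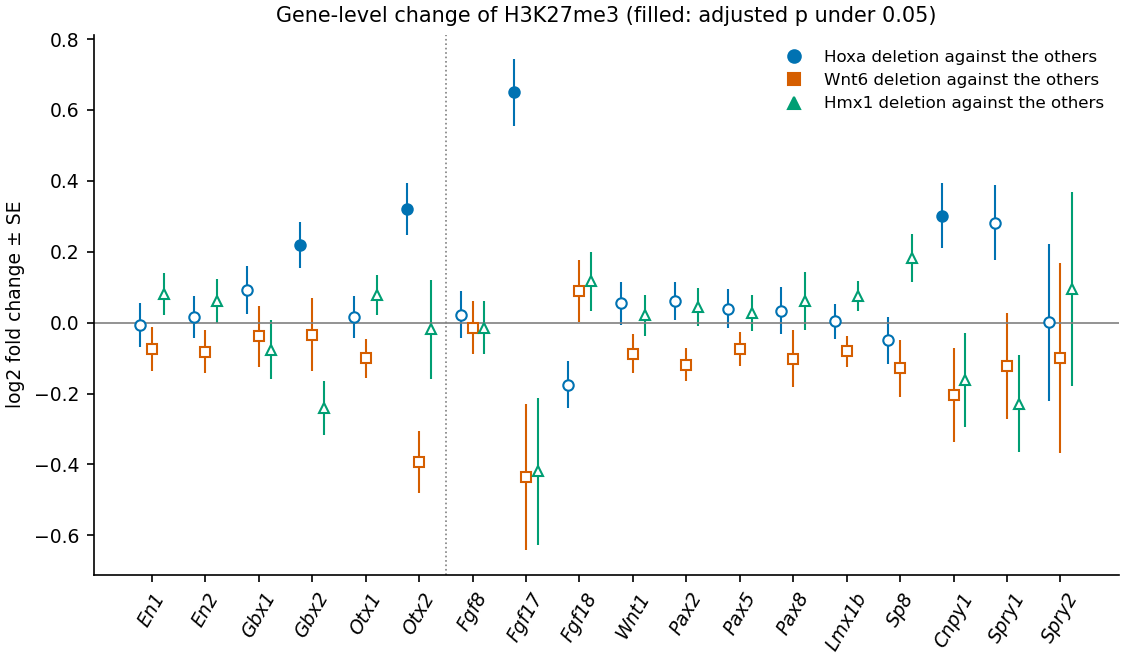
Log2 fold change ± SE (y axis) for the 6 genes (left of the dotted line) and 12 genes of the isthmic organizer (right) in each comparison of a deletion with the other 2 pooled. Filled symbols passed an adjusted p of 0.05 by edgeR. They are Gbx2, Otx2, Fgf17 and Cnpy1 in the Hoxa comparison, all above 0.

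The genes whose summed peaks followed each member most closely over the 7 libraries are given as a description, by Pearson's r of log2 CPM, from 10805 to 10808 genes with enough counts that share no peak with the member. The libraries share their deletion and depth. For Otx2 they were Foxd3 (r = 0.989) and Zic5 (0.988), and for Gbx2 Zfp385c (0.995) and Paqr8 (0.994). En1 was followed by Runx2 (0.967) and Wnt8b (0.966), En2 by Rasgrp1 (0.990) and Lhx2 (0.988), Gbx1 by Wnk4 (0.989) and Shmt2 (0.981), and Otx1 by Adra2b (0.993) and Neurog2 (0.988). Foxd3, Zic5, Lhx2, Neurog2 and Runx2 encode developmental transcription factors. None of the members was among the closest genes of another.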

How the data were processed

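Reads of the H3K27me3 libraries had been counted over a common peak list by the authors, and the deposited values are raw counts. The submitters' processing notes name Trimmomatic, Bowtie2, SAMtools, Picard, MACS2, deepTools and mm10, without versions or roles. How the list was drawn from the libraries and whether reads or fragments were counted are not given in the sources used here. Peaks strong in the libraries used for calling are favoured by such a list. Genes came from RefSeq (GRCm38.p6), in a table without exons, so that only gene body or flank is given. Peak positions are as deposited, with the start convention unstated.

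Groups follow the sample titles. Counts were tested in R 4.3.3 with edgeR 4.0.16 (glmQLFit and glmQLFTest, TMM factors, filterByExpr, which removed 17 peaks and left 74441), each deletion against the other 2 pooled, per peak and per gene (counts summed over peaks within 10 kb), with Benjamini-Hochberg adjustment over all features. Called peaks had an adjusted p under 0.05 and a log2 fold change beyond 1 in either direction. Standard errors were derived from the F statistic. A prior count of 2 was used only for the log2 CPM values behind the correlations. Neighbouring genes share peaks. Libraries of a deletion may be technical replicates, and p-values then measure only the spread between these libraries. Low counts in the smallest library (6016500) limit the weakest peaks. Limma 3.58.1 and DESeq2 1.42.0 served the alternatives, and matplotlib 3.10.9 (Python 3.11.15) made the figures. On simulated counts, edgeR recovered 74% of 100 peaks changed by 1 on the log2 scale in the Hoxa design, 70% in the Wnt6 design and 54% in the Hmx1 design. The simulated dispersion was set to 0.02 and not estimated from these data. The 2 reference deletions were given the same mean, whereas in these data they differ at some peaks. Recovery in these data may therefore be lower.

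Alternatives were DESeq2, RLE factors, library totals, no filter, a minimum mean count of 20, a term per deletion, each other deletion alone, a replicate block, downsampling, offsets by abundance, other windows, and leaving out each library. The members and lists were chosen with earlier results of these data known. Named were all members, their densest peaks, those at the start or both ends, every called peak, the smallest adjusted p in each comparison, the 2 genes most like each member, and, in the list of other genes, the 2 highest, the 2 lowest and those that passed. Other Otx2 and Gbx2 peaks and the Gbx1 and Gbx2 peaks past the adjusted p were named after their values were seen.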

Additional observations from a re-analysis of the deposited data

How the results depend on the processing

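The higher level of Otx2 in the Hoxa deletion than in the others passed under all 21 alternatives. They are not independent, and the one without a filter equals the main fit for genes. Counts of peaks and the other genes depended on the reference and on single libraries. In the Hoxa comparison, the member peaks past the adjusted p (7) ranged from 4 to 8 when a library was left out, with 4 without replicate 1 of the Hoxa deletion or replicate 2 of the Wnt6 deletion, and fell to 3 with the gene body alone, which holds fewer peaks. Otx2 peaks past the adjusted p (5) ranged from 2 to 6 over the left-out libraries and numbered 3 in DESeq2. The 2 member genes became 1 with the gene body alone, against the Wnt6 deletion alone, or (range 1 to 2) without replicate 1 of the Hoxa deletion or replicate 2 of the Hmx1 deletion. Called peaks went from 0 to 1 between the Hoxa and Wnt6 deletions alone. In the Wnt6 comparison, 0 peaks past the adjusted p became 2 in DESeq2, 4 with a term per deletion and 9 against the Hoxa deletion alone, and 0 called peaks became 1 there. The 0 genes became 1 with a term per deletion and against either other deletion alone. In the Hmx1 comparison, 0 peaks became 5 against the Hoxa deletion alone. The 0 genes became 1 with a term per deletion, 2 against the Hoxa deletion alone, 1 against the Wnt6 deletion alone, and ranged from 0 to 1 over the left-out libraries, with 1 without replicate 2 of the Wnt6 deletion.

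Of 378 recomputed log2 fold changes, 34 reversed in sign, in comparisons where the gene itself had not passed the threshold. The reversed value of Otx2 in the Hmx1 comparison passed against the Wnt6 deletion alone (adjusted p = 0.0388). In the Hoxa comparison, En1 became 0.0053 with library totals, 0.041 with offsets by abundance, 0.018 with the replicate block, 0.041 with the gene body alone, 0.033 within 5 kb and 0.051 against the Wnt6 deletion alone. En2 and Otx1 became -0.040 and -0.039 in DESeq2 and -0.036 and -0.047 against the Hmx1 deletion alone. Over left-out libraries En1 ranged from -0.031 to 0.034, En2 from -0.025 to 0.045 and Otx1 from -0.019 to 0.043. In the Wnt6 comparison, Gbx1 became 0.0056 after downsampling and 0.017 against the Hmx1 deletion alone, and Gbx2 became 0.0020 with a term per deletion and 0.15 against the Hmx1 deletion alone, with left-out ranges of -0.13 to 0.053 for Gbx1 and -0.077 to 0.0085 for Gbx2. In the Hmx1 comparison, offsets by abundance gave -0.0085 for En1, -0.050 for En2 and -0.034 for Otx1. Otx2 became 0.022 in DESeq2, 0.048 with a term per deletion, 0.013 with the replicate block and 0.28 against the Wnt6 deletion alone. Left-out ranges were -0.17 to 0.0087 for Gbx1 and -0.099 to 0.061 for Otx2. The causes were not tested. Correlations of same-numbered deviations ran from -0.0452 to 0.0836. In groups of 2 libraries these deviations mirror each other (r = -1), so that this check is weak and cannot exclude a pairing by replicate number. In each deletion replicate 1 had the smallest library total and replicate 2 the largest. With the number as a block the Hoxa comparison kept counts of 7 peaks and 2 genes and the other comparisons 0. Depth limits the weakest peaks, where the lowest count was 7.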
